A study of Mus musculus with 13 samples.

Results

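Macrophages from mice with a myeloid-specific deletion in Acly (Acly M-KO), held with lipopolysaccharide (LPS) for 24 h, were compared with such cells held with LPS for 3 h. The aim was to describe how the LPS response moved from its early to its late stage in these cells. The comparison used 6 of the 13 RNA-seq libraries of the series, 3 per time, and 11673 of the 24562 genes in the table passed the filter on low counts. They are bone marrow-derived macrophages (BMDMs), grown from the marrow of female mice in medium conditioned by L929 cells, which supplies the growth factor CSF1. In Acly M-KO mice, Cre driven by the Lyz2 promoter, which is active in myeloid cells, removes an exon of the floxed Acly gene. Control mice carried the floxed Acly fl/fl alleles without Cre. Their 3 h and 24 h LPS libraries serve here only to show where the course in Acly M-KO cells differed. The ages of the mice are not given in the sources used here, and the labels do not say whether libraries came from separate animals or cultures, so p-values measure the spread between these libraries, which may be technical. No unstimulated library was analysed here, so a gene lower at 24 h than at 3 h may still lie above its resting level, and the time in culture cannot be told apart from the time with LPS.

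LPS, a component of the outer membrane of Gram-negative bacteria, is sensed by macrophages through TLR4 with the co-receptors CD14 and MD-2. Through the adaptors MyD88 and TRIF it activates NF-kB, MAP kinases and IRF3, and a first wave of cytokine and transcription factor genes is followed by interferon-driven and feedback genes. ATP citrate lyase, the product of Acly, cleaves cytosolic citrate into acetyl-CoA, the building block of fatty acids and cholesterol and a donor for protein acetylation.

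The 6 libraries held between 21717016 and 24645825 counts each. Acly lies on mm10 chr11:100476352-100528000, and its level was 63.3, 77.4 and 69.8 CPM, the counts in each 1000000 of a library scaled by its TMM factor, in Acly M-KO replicates 1, 2 and 3 at 3 h, and 50, 50.6 and 48.2 CPM at 24 h. Scaled together with the controls, Acly was between 175 and 188 CPM in the 6 control libraries used, above all Acly M-KO libraries. Reads from the rest of the transcript are still counted in Acly M-KO cells. Counts were not made by exon, so such reads cannot be told apart from those of cells that kept the exon. Its log2 fold change from 3 h to 24 h in Acly M-KO cells was -0.50 (SE 0.08), below the fold required for a call. Of 10 macrophage markers, all 10 were detected and tested, with summed levels of 11996 to 13696 CPM at 3 h and 7761 to 7947 CPM at 24 h. Of these, 5 were lower at 24 h (Csf1r, Itgam, Lyz2, Cd14 and Spi1) and 2 higher, among them Fcgr1. In bulk RNA, fewer cells of a type and less RNA per cell cannot be told apart.

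Between 3 h and 24 h of LPS, 4847 genes, 41.5% of those tested, changed in Acly M-KO macrophages, with an adjusted p under 0.05 in edgeR's quasi-likelihood test and a log2 fold change beyond 0.75. Of these, 2485 (21.3% of genes tested) were higher and 2362 (20.2%) were lower at 24 h. The counts called in the gene lists below are to be read beside these shares. The larger changes were more often decreases, since 709 genes were lower but 484 higher by more than 2 on the log2 scale, and 142 lower but 53 higher by more than 4. The 3 libraries of one time did not overlap those of the other for 9014 genes (77.2%). The median SE of a log2 fold change was 0.11, and the median change of all genes tested was 0.03.

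The balance of higher and lower genes depended on the scaling. With TMM scaling 51.3% of changed genes were higher at 24 h, against 59.6% with upper quartile scaling (2988 higher and 2026 lower) and 65.8% with scaling to total counts alone (3433 higher and 1781 lower). Total counts alone shifted the median of all genes by 0.24 on the log2 scale and upper quartile scaling by 0.14. Under total counts alone 0 changed genes were called in the opposite direction, and 4266 of the 4847 were called in the same direction.

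**Figure D1:**
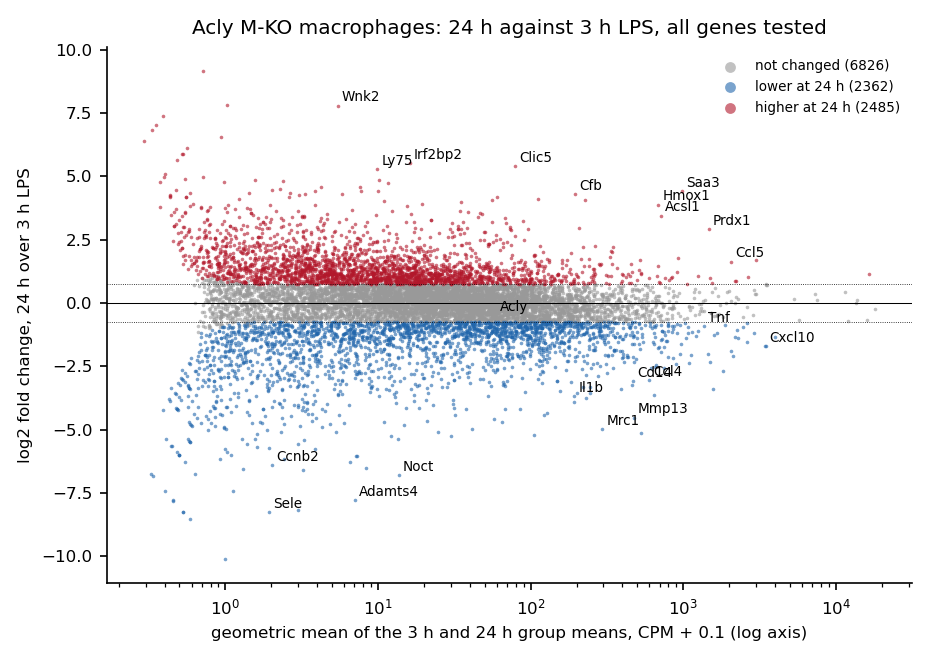
Each point is 1 of the 11673 genes tested in Acly M-KO macrophages. The x axis (log scale) gives the geometric mean of the 3 h and 24 h mean levels in CPM plus 0.1, and the y axis the log2 fold change of 24 h over 3 h. Red points are the 2485 genes higher and blue points the 2362 genes lower at 24 h. Dotted lines mark the fold required for a call, and named points other than Saa3 are genes given in the text. The named increases reach 7.79 (Wnk2) and the named decreases -8.27 (Sele).

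Short stretches of promoter are shown first, with motifs found in some genes of the early wave, the interferon response, cell division and the antioxidant response. The stretches were taken only from promoters that hold the motif. The motifs were chosen for known regulators of these groups. Each stretch lies upstream of the annotated start, is written 5′ to 3′ along the gene's strand from RefSeq on GRCm38.p6, and has the motif in capitals with at most 10 flanking bases on each side. Of the 11673 genes tested, 9328 had a promoter in the table, from 250 bases before to 50 bases after the start. A match is a description of the letters and not evidence of binding. The NF-kB motif was searched on both strands as GGG, any 2 bases and TTTCC, or as GGAA, any 2 bases and TCCC. It was in 3 of 13 matched promoters of inflammatory cytokine genes, 0 of 18 of immediate-early genes and 2.74% over all genes tested. The windows shown belong to genes lower at 24 h.
Cxcl1, chr5:90891146-90891175, + strand: ccggttgcagGGAAACACCCtgtactccgg
Cxcl3, chr5:90786018-90786047, + strand: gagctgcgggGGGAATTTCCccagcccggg
Cxcl10, chr5:92349029-92349058, - strand: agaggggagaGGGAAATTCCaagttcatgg
Il6, chr5:30013060-30013089, + strand: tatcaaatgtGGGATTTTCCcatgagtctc
Ifnb1, chr4:88522891-88522920, - strand: aactgaaagtGGGAAATTCCtctgaggcag
Rel, chr11:23771041-23771070, - strand: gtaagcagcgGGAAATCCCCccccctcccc
Tnfaip3, chr10:19015411-19015432, - strand: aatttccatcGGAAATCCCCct
The interferon-stimulated response element was searched on both strands as GAAA, any 2 bases and GAAA, and is shown for genes that were higher (Isg15, Oas3 and Bst2) and lower (Ifit1, Irgm1 and Irgm2) at 24 h.
Isg15, chr4:156200877-156200906, - strand: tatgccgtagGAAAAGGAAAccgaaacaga
Oas3, chr5:120777715-120777744, - strand: gcagggaggaGAAAACGAAAgtgaagggag
Bst2, chr8:71537583-71537612, - strand: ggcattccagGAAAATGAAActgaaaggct
Ifit1, chr19:34640775-34640804, + strand: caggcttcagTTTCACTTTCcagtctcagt
Irgm1, chr11:48871431-48871460, - strand: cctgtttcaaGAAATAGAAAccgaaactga
Irgm2, chr11:58214903-58214932, + strand: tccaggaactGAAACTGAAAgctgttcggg
The cell cycle homology region (CHR), TTTGAA on either strand, is shown for genes of mitosis, all lower at 24 h.
Ccnb2, chr9:70421706-70421731, - strand: gggactagaaTTTGAAaataagactg
Cdc20, chr4:118437346-118437371, - strand: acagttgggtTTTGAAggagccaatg
Kif11, chr19:37376353-37376378, + strand: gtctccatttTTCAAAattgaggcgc
Top2a, chr11:99024353-99024378, - strand: attggtccatTTTGAAgattctcccg
The antioxidant response element, searched as TGACNNNGC on both strands and added after the values were seen, is shown for genes higher at 24 h.
Gclm, chr3:122245413-122245441, + strand: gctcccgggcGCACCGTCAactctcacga
Prdx1, chr4:116685456-116685484, + strand: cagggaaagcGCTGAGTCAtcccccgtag
G6pdx, chrX:74428919-74428947, - strand: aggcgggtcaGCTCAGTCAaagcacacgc

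The genes with the largest increases among those reaching a mean of 10 CPM in the higher group were Wnk2, Irf2bp2, Clic5, Ly75, Antxr1, Rhov, Ly6a, Siglece, Slc6a19 and Fstl1, with log2 fold changes from 7.79 down to 4.43. Wnk2 (chr13:49036302-49148574), a kinase of the WNK family that regulates ion transport, was at 0, 0.367 and 0.566 CPM at 3 h and at 80.4, 68.5 and 68.0 CPM at 24 h. Clic5 (chr17:44134762-44280169), a chloride intracellular channel protein, was at 9.29, 14.2 and 12.8 CPM at 3 h and at 519, 528 and 506 CPM at 24 h. Irf2bp2, which encodes a transcriptional co-repressor that binds IRF2, was at 1.69 to 2.75 CPM at 3 h and at 97.1 to 115 CPM at 24 h. For each of the 10 genes all 24 h libraries stood above all 3 h libraries, as was the case for 39.8% of genes tested. Ly75 encodes the endocytic receptor DEC-205, Siglece a sialic acid-binding inhibitory receptor, and Ly6a a GPI-anchored surface protein also called Sca-1.

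The 10 largest decreases by the same rule ran from -8.27 to -6.03 on the log2 scale and included those of Sele, Gprc5c, Adamts4, Noct, Olr1, Gja1, Ccnb2, Selp and Ccr3. Sele (chr1:164039614-164058487) and Selp encode the adhesion molecules E-selectin and P-selectin. Sele was at 20, 23.9 and 23.4 CPM at 3 h and at 0.0624, 0.133 and 0 CPM at 24 h, where its level rested on 3 counts against 849. The ratio of these sums was 351 (95% exact counting interval 120 to 1707). Adamts4 (chr1:171250129-171262267), a protease that cleaves aggrecan, was at 91.9, 93.9 and 99.6 CPM at 3 h and at 0.624, 0.267 and 0.382 CPM at 24 h. Noct, a circadian and immediate-early gene for the phosphatase nocturnin, was at 134 to 144 CPM at 3 h and at 1.13 to 1.37 CPM at 24 h, a log2 fold change of -6.81 (SE 0.10, adjusted p = 3.54e-17). Gja1, which encodes the gap junction protein connexin 43, was at 63.4 to 85.0 CPM at 3 h and at 0.600 to 0.998 CPM at 24 h. All 24 h libraries stood below all 3 h libraries for each of the 10, as for 37.4% of genes tested. Adamts4 overlaps another gene on the opposite strand, and the use of strand in counting is not given in the sources used here, so reads of such a pair cannot be told apart.

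Most genes of the immediate-early list, whose transcripts usually appear within minutes to hours of a stimulus, were lower at 24 h. The list holds chiefly transcription factor genes, with a few others such as Ier3. Of 21 tested, 11 were lower (52.4%, against 20.2% of all genes tested) and 4 higher (19%, against 21.3%). The median log2 fold change was -0.94. Egr1, a zinc finger factor, was at 15.3, 19.1 and 14.6 CPM at 3 h and at 1.87, 2.07 and 1.91 CPM at 24 h (log2 fold change -3.07, SE 0.17). Nr4a3, an orphan nuclear receptor, was at 14.8 to 15.6 CPM at 3 h and at 0.437 to 0.667 CPM at 24 h. Fosb, a subunit of the AP-1 factor, had 87 counts at 3 h and 2 at 24 h, a ratio of 54.0 (95% exact counting interval 14.5 to 453). The 4 that rose were Klf4, Klf2, Ier3 and Nr4a2, of which Klf2 lost its call without 3 h replicate 2 (0.70 on the log2 scale). Klf4, a factor of monocyte differentiation, was at 7.92 to 10.9 CPM at 3 h and at 37.0 to 42.6 CPM at 24 h (log2 fold change 2.12, SE 0.11). Jun and Atf3 were not called, at -0.73 and -0.43 on the log2 scale.

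The subunits of NF-kB and the inhibitors that NF-kB itself induces fell together. Of 17 tested, 11 were lower, 1 was higher and 5 were not called, with a median of -1.32. All 5 subunits fell, by 2.59 on the log2 scale for Rel, 2.41 for Nfkb1, 1.49 for Rela, 1.32 for Nfkb2 and 1.24 for Relb. Nfkbiz, which encodes the nuclear co-activator of secondary response genes IkB-zeta, was at 813, 739 and 762 CPM at 3 h and at 72.9, 82.0 and 78.1 CPM at 24 h. Tnfaip3, which encodes the ubiquitin-editing inhibitor A20, was at 2044 to 2169 CPM at 3 h and at 387 to 392 CPM at 24 h, a log2 fold change of -2.42 (SE 0.05, adjusted p = 1.23e-15). Irak3, which encodes IRAK-M, an inhibitor of Toll-like receptor signalling, was the member that rose, from 40.6 to 50.3 CPM at 3 h to 116 to 127 CPM at 24 h. Cyld and Otulin, deubiquitinases of the same pathway, gave 0.31 and -0.38. The NF-kB motif was found in 5 of 14 promoters of this list, against 2.68% of all promoters in the table.

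Among the genes that limit signalling, 7 of 15 MAP kinase phosphatase and mRNA decay genes were lower (46.7%) and 3 higher (20%). Over all genes tested these shares were 20.2% and 21.3%. Dusp2, a phosphatase of ERK and p38, was at 148, 141 and 135 CPM at 3 h and at 3.37, 4.54 and 4.52 CPM at 24 h (log2 fold change -5.09, SE 0.10). Dusp1 gave 0.04 and was not called. Zfp36, which encodes tristetraprolin, a protein that binds AU-rich elements and promotes mRNA decay, was at 978 to 1139 CPM at 3 h and at 196 to 235 CPM at 24 h, whereas its paralogue Zfp36l2 rose from 41.1 to 47.0 CPM to 83.2 to 84.6 CPM. In the group of IL-10, STAT3 and SOCS feedback genes, 10 of 13 were lower and 0 higher, with 3 that did not pass the rule. DESeq2 also called 0 higher, and 1 of the 13 was higher at an unadjusted p under 0.05 in edgeR. Il10, the anti-inflammatory cytokine, was at 28.5, 39.7 and 29.5 CPM at 3 h and at 4.43, 3.94 and 4.78 CPM at 24 h. Socs1 and Socs3, inhibitors of JAK-STAT signalling, fell by 2.54 and 1.94 on the log2 scale, and Cish, of the same family, fell by 4.82. Il1rn, the IL-1 receptor antagonist, gave 0.19.

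Inflammatory cytokine transcripts were mostly lower at 24 h, with 12 of 18 lower, 1 higher and a median of -1.50, and their summed level went from 4824 to 5476 CPM at 3 h to 1923 to 2072 CPM at 24 h. Il1b was at 766, 632 and 681 CPM at 3 h and at 49.0, 60.1 and 52.6 CPM at 24 h (log2 fold change -3.68, SE 0.09, adjusted p = 1.88e-13). Il6 was at 161, 176 and 153 CPM at 3 h and at 34.1, 46.0 and 40.6 CPM at 24 h, and Il12b, the shared subunit of IL-12 and IL-23, at 114 to 139 CPM and 18.8 to 36.8 CPM. Tnf fell less, from 2062, 1628 and 1955 CPM at 3 h to 1014, 1016 and 970 CPM at 24 h, and its log2 fold change of -0.91 (SE 0.07) became -0.67, short of a call, when libraries were scaled to total counts alone. Ifnb1, the interferon made early after TLR4 engagement, was at 6.62, 13.7 and 7.35 CPM at 3 h and at 4.24, 2.67 and 2.99 CPM at 24 h. Il33 rested on 1 count at 24 h against 123 at 3 h, a ratio of 153 (95% exact counting interval 26.9 to 6079). The single cytokine that rose was Inhba, which encodes the activin A subunit, from 10.7 to 14.7 CPM to 38.3 to 51.5 CPM.

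Chemokine transcripts followed the same direction, with 12 of 19 lower, 1 higher and a median of -1.58. Ccl4, a chemokine that attracts monocytes and T cells, was at 1682, 1750 and 1705 CPM at 3 h and at 224, 201 and 201 CPM at 24 h. Cxcl10, a CXCR3 ligand that also answers to interferon, was at 6096, 6324 and 6260 CPM at 3 h and at 1852, 1967 and 1856 CPM at 24 h (log2 fold change -1.72, SE 0.05). It overlaps Art3 on the opposite strand. Cxcl1, a neutrophil attractant, fell from 19.8 to 28.4 CPM to 1.20 to 1.91 CPM. Ccl5 alone of the 19 rose, from 1210, 1121 and 1181 CPM at 3 h to 3782, 3556 and 3554 CPM at 24 h (log2 fold change 1.63, SE 0.05, adjusted p = 9.04e-14). Cxcl9, Cxcl11, Cxcl16, Ccl8, Ccl22 and Cxcl14 were not called. The NF-kB motif was present in 5 of the 8 promoters matched for chemokines that fell (Ccl9, Cxcl1, Cxcl2, Cxcl3 and Cxcl10) and in 0 of the 4 matched for those not called. Over all genes tested, its share was 4.57% for genes lower by more than 2 on the log2 scale and 2.56% for those lower by up to 2. The share was 2.57% for genes not called, 2.95% for those higher by up to 2 and 2.36% for those higher by more than 2.

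**Figure D2:**
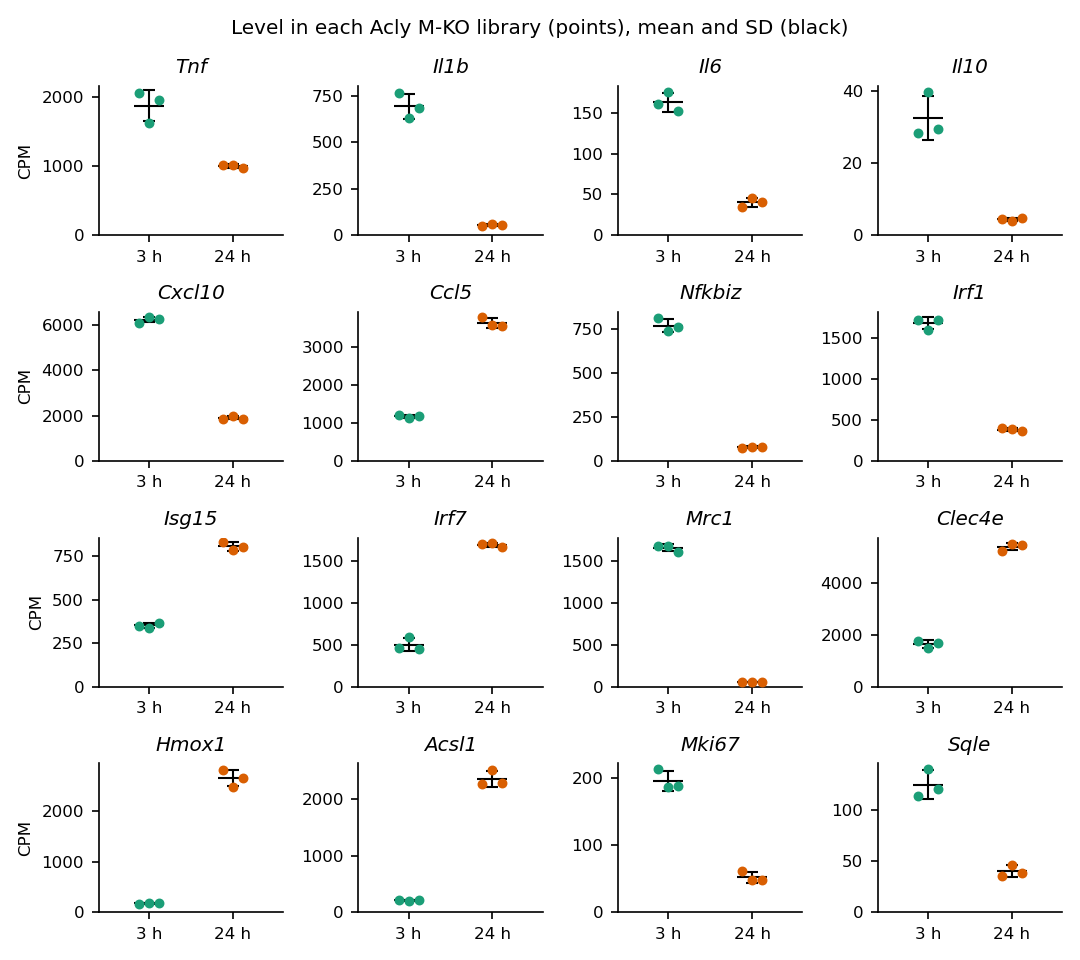
Level in CPM (y axis, from 0 in every panel) of 16 genes in each Acly M-KO library at 3 h (green) and 24 h (orange) of LPS, with the mean and SD of 3 libraries in black. In all 16 panels the libraries of the 2 times do not overlap. The genes Ccl5, Isg15, Irf7, Clec4e, Hmox1 and Acsl1 stand higher at 24 h and the other 10 stand lower.

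Interferon response genes were called in each direction about as often as all genes tested. Of 43 tested, 9 were higher (20.9%, against 21.3% of all genes), 10 lower (23.3%, against 20.2%) and 24 not called, with a median of -0.09 that became 0.16 under scaling to total counts alone. Summed, they held 63810 to 67046 CPM at 3 h and 55795 to 56452 CPM at 24 h. Genes that rose included Irf7, the master factor of later interferon production, from 457, 587 and 455 CPM to 1699, 1713 and 1670 CPM. Ifi44 (log2 fold change 2.94, SE 0.12), Bst2, which tethers budding virus (2.03, SE 0.06), and the ubiquitin-like modifier Isg15 (1.20, SE 0.05) rose as well. Genes that fell included Irf1, from 1719, 1595 and 1711 CPM to 397, 382 and 365 CPM, and the RNA sensor gene Ifih1, from 1315 to 1352 CPM to 458 to 468 CPM. The antiviral gene Ifit1 and the interferon-inducible GTPase gene Irgm1 each fell by 1.18, and Rsad2, which encodes viperin, gave -0.24. The response element did not separate the directions, being present in 4 of 8 promoters of higher members, 6 of 8 of lower members and 11 of 18 of those not called, and in 3.44% of all promoters.

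Antigen presentation genes were more often higher, 10 of 25 (40%, against 21.3% of all genes tested). Of the 25, 3 were lower (12%, against 20.2%), and the median was 0.58. The MHC class II genes H2-Ab1, H2-Aa and H2-Eb1 rose by 1.52, 1.45 and 1.40 on the log2 scale, with Cd74, the invariant chain (1.05), and the peptide-exchange genes H2-DMa (1.07) and H2-DMb1 (1.34). H2-Ab1 was at 32.8, 24.7 and 34.7 CPM at 3 h and at 79.1, 106 and 78.1 CPM at 24 h. Ciita, the transactivator of class II genes, was lower, at 19.4 to 20 CPM at 3 h and 7.86 to 14.2 CPM at 24 h, but its call was lost without 24 h replicate 1, at a log2 fold change of -0.68. The co-stimulatory receptor gene Cd40 fell from 776 to 892 CPM to 187 to 200 CPM and Cd80 by 1.33 on the log2 scale, while Cd86 gave 0.22.

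Effector enzymes moved unequally. Nos2, the inducible nitric oxide synthase, rose from 517, 545 and 509 CPM to 978, 895 and 894 CPM (log2 fold change 0.82, SE 0.06), and Ass1, which regenerates its substrate arginine from citrulline, rose from 14.5 to 16.7 CPM to 59.6 to 62.6 CPM. Gch1, the first enzyme in making the cofactor tetrahydrobiopterin, and Qdpr, which recycles it, fell by 0.96 and 1.58. Acod1, the enzyme that makes itaconate, was at 5993 to 6841 CPM at 3 h and at 8146 to 8423 CPM at 24 h, a log2 fold change of 0.36 that did not reach the fold required. Ptgs2, the inducible cyclooxygenase, was at 622, 547 and 583 CPM and 636, 582 and 572 CPM (log2 fold change 0.03, SE 0.06, adjusted p = 0.66), with overlapping libraries. Ptges, the prostaglandin E synthase downstream of it, rose from 34.6, 18.7 and 27.6 CPM to 461, 459 and 466 CPM (log2 fold change 4.11, SE 0.18), and Ptgs1, the constitutive cyclooxygenase, fell from 13.2 to 14.2 CPM to 0.467 to 1.08 CPM. Of 11 prostaglandin and leukotriene genes tested, 5 were lower (45.5%, against 20.2% of all genes tested) and 1 higher (9.09%, against 21.3%).

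Inflammasome genes changed in both directions. Of 13 tested, 4 were higher (30.8%, against 21.3% of all genes tested) and 4 lower (30.8%, against 20.2%). The higher ones were Nlrc4 (2.03) and its partners Naip2 (1.56), Naip5 (1.41) and Naip6 (1.11), which detect bacterial flagellin and secretion systems. The 4 that were lower were Nlrp3, Aim2, Nlrp1b and the adaptor Pycard. Nlrp3 was at 687, 516 and 605 CPM at 3 h and at 99.5, 103 and 99.6 CPM at 24 h (log2 fold change -2.58, SE 0.09). Naip genes are near-identical copies of each other, so reads may have been shared between them.

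Of 11 complement genes tested, 3 were higher (27.3%, against 21.3% of all genes tested) and 6 lower (54.5%, against 20.2%). Cfb, the protease factor of the alternative pathway, rose from 46.8, 42.2 and 43.1 CPM to 878, 883 and 862 CPM (log2 fold change 4.31, SE 0.06, adjusted p = 3.33e-17), and C3 rose from 1386 to 1875 CPM to 2709 to 3245 CPM. The genes of the C1q chains fell by 1.27 for C1qa, 1.76 for C1qb and 2.13 for C1qc, and the anaphylatoxin receptor gene C5ar1 fell by 3.91. Cfb and C2 both overlap Gm20547, a gene model on the same strand, so their counts are less certain.

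Receptors of the macrophage surface were mostly lower. In the list of 22 scavenger, phagocytic and lectin receptor genes, which includes the ligand gene Gas6, 13 were lower and 4 higher, with a median of -1.43. Mrc1 (chr2:14229414-14332023), the mannose receptor, was at 1680, 1687 and 1612 CPM at 3 h and at 51.7, 54.7 and 51.0 CPM at 24 h (log2 fold change -4.98, SE 0.06, adjusted p = 7.33e-18). Cd163, the haemoglobin scavenger receptor, went from 27.5 to 31.8 CPM to 0.701 to 1.00 CPM, and Gas6, the bridging ligand for apoptotic cells, from 816 to 860 CPM to 60.6 to 65.7 CPM. Trem2 and Stab1 fell by 2.36 and 2.78. The members that rose were Marco, a scavenger receptor for bacteria (log2 fold change 3.24, SE 0.16), Clec4e, the receptor Mincle (1.71, SE 0.06), Axl (1.08) and Fcgr1 (0.99). Clec4e went from 1767, 1486 and 1695 CPM to 5232, 5505 and 5472 CPM.

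Toll-like receptors and their co-receptors had a median of 0.02. Of 17 tested, 5 were higher (29.4%, against 21.3% of all genes tested) and 5 lower (29.4%, against 20.2%). Tlr2 was at 940, 715 and 869 CPM at 3 h and at 60.1, 80.3 and 72.4 CPM at 24 h, and Cd14 at 1411, 1300 and 1395 CPM and 162, 162 and 158 CPM. Tlr4 itself gave -0.08 and Ly96, which encodes MD-2, -0.48, and neither was called. Tlr9, the receptor for unmethylated DNA, rose from 29.0 to 32.2 CPM to 126 to 136 CPM. The adaptor gene Myd88 fell by 1.17, while Ticam1, which encodes TRIF, rose by 1.20 on the log2 scale.

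Among lineage factor and chemotactic receptor genes, 8 of 17 were lower (47.1%, against 20.2% of all genes tested) and 5 higher (29.4%, against 21.3%). Irf8, a factor of monocyte and dendritic cell identity, was at 542, 713 and 598 CPM at 3 h and at 84.6, 83.2 and 87.1 CPM at 24 h. Cebpd fell from 66.0 to 70.6 CPM to 6.4 to 8.03 CPM, whereas its relatives Cebpa and Cebpb rose by 2.33 and 0.89. Ccr1 and Ccr2 fell by 3.01 and 1.30, and Ccr7, the receptor that guides cells to lymph nodes, went from 9 counts at 3 h to 138 at 24 h. Of 17 matrix genes 13 were lower and 2 higher, with the lowest list median, -2.08. The collagenase gene Mmp13 fell from 2094 to 2640 CPM to 86.3 to 106 CPM. Thbs1 and Mmp19 were the members that rose, by 1.45 and 1.00 on the log2 scale.

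Genes of DNA replication and mitosis fell almost throughout, with 25 of 28 lower, 1 higher and a median of -1.99. Mki67, a marker of cycling cells, was at 213, 186 and 187 CPM at 3 h and at 60.8, 47.6 and 47.5 CPM at 24 h. Top2a, the topoisomerase that untangles chromosomes, was at 61.1, 84.6 and 72.7 CPM and 9.05, 8.87 and 9.36 CPM. Plk1, Cdc20 and Birc5, which act in mitosis, had log2 fold changes of -5.18, -4.12 and -4.01. Mcm6, Pcna and Mcm4, which act in replication, had changes of -1.53, -1.18 and -0.92. Ccne1, the cyclin of S phase entry, rose from 9.97 to 11.4 CPM to 28.5 to 32.9 CPM. The CHR motif was present in 10 of the 22 matched promoters of members that fell, against 17.9% of all promoters, and CCAAT in 19 of 22, against 37.4%. CHR was also in 5 of 12 matched promoters of the inflammasome list. CCAAT was also in 12 of 15 of the endoplasmic reticulum and integrated stress response list, of which 0 members were lower. The windows of Ccnb2, Cdc20, Kif11 and Top2a above are examples.

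Antioxidant genes showed the highest list median, 1.52, with 11 of 15 NRF2 target, pentose phosphate and metallothionein genes higher and 2 lower. Hmox1, which degrades haem, was at 174, 178 and 185 CPM at 3 h and at 2798, 2473 and 2640 CPM at 24 h (log2 fold change 3.88, SE 0.06, adjusted p = 3.85e-17). Prdx1, a peroxidase, went from 477, 582 and 556 CPM to 4285, 3800 and 3976 CPM. The glutathione synthesis genes Gclm and Gclc rose by 3.15 and 2.28, and the pentose phosphate genes G6pdx, Pgd and Taldo1 by 1.52, 1.14 and 0.82, all on the log2 scale. The metallothionein genes Mt1 and Mt2, which bind metals, were the members that fell, Mt2 from 127 to 134 CPM to 6.5 to 8.42 CPM. The antioxidant response element was present in 4 of 8 promoters of members that rose (Gclm, Srxn1, Prdx1 and G6pdx) and in 1 of 2 of members that fell (Mt2). Its share was 15.1% over genes tested and 12.4% over all promoters. Immediate-early and respiratory chain promoters held it in 27.8% and 27.3%. Gclm overlaps the gene model Gm6061 on the same strand. Among the 16 genes of the endoplasmic reticulum and integrated stress response, 5 rose (31.2%, against 21.3% of all genes tested) and 0 fell by edgeR. DESeq2 called 0 of them lower, and 4 were lower at an unadjusted p under 0.05 in edgeR. Ddit3, which encodes CHOP, went from 11.5 to 18.8 CPM to 150 to 167 CPM.

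Central carbon metabolism changed little by these criteria. Of 30 respiratory chain subunit genes, 0 were called in either direction in edgeR's test. Of 22 citrate cycle genes 1 was higher (4.55%) and 3 lower (13.6%), and of 18 glycolysis and lactate export genes 1 was higher (5.56%) and 3 lower (16.7%). Over all genes tested these shares were 21.3% and 20.2%. At an unadjusted p under 0.05, 5 of the 30 respiratory chain genes were higher and 11 lower, and DESeq2 called 0. Their log2 fold changes lay between -0.54 and 0.58, and with total counts alone 2 of the 30 were higher. The medians of these 3 lists, -0.07, -0.13 and -0.07, all turned positive under total counts alone, to 0.18, 0.12 and 0.17. Hk2, the inducible hexokinase, was at 281, 240 and 250 CPM at 3 h and at 50.3, 54.4 and 51.5 CPM at 24 h, and Hk3 rose by 0.76, just beyond the fold required, with 0.72 to 0.74 and no call without 24 h replicate 1, 3 h replicate 1 or 3 h replicate 3. Gapdh, Eno1 and Pgk1 have near-identical copies elsewhere in the genome and their counts are uncertain. Vegfa, a hypoxia-response gene, went from 12.1 to 15.3 CPM to 89.8 to 97.9 CPM, while Ndrg1 of the same list went from 219 to 245 CPM to 7.13 to 7.60 CPM. That list had 2 of 10 higher (20%, against 21.3% of all genes tested) and 3 lower (30%, against 20.2%).

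Of 25 lysosome genes, 3 were higher (12%, against 21.3% of all genes tested) and 5 lower (20%, against 20.2%). Their median of -0.14 became 0.10 under total counts alone. Of 24 ribosome biogenesis genes 1 was higher (4.17%, against 21.3%) and 6 lower (25%, against 20.2%). Tfeb, the regulator of lysosomal genes, rose from 2.86 to 5.33 CPM to 22 to 22.9 CPM, while Hexa, a hexosaminidase subunit, fell from 1278 to 1311 CPM to 425 to 479 CPM. Rrs1 and Ddx21, which act in ribosome assembly, fell by 1.15 and 1.11.

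**Figure D3:**
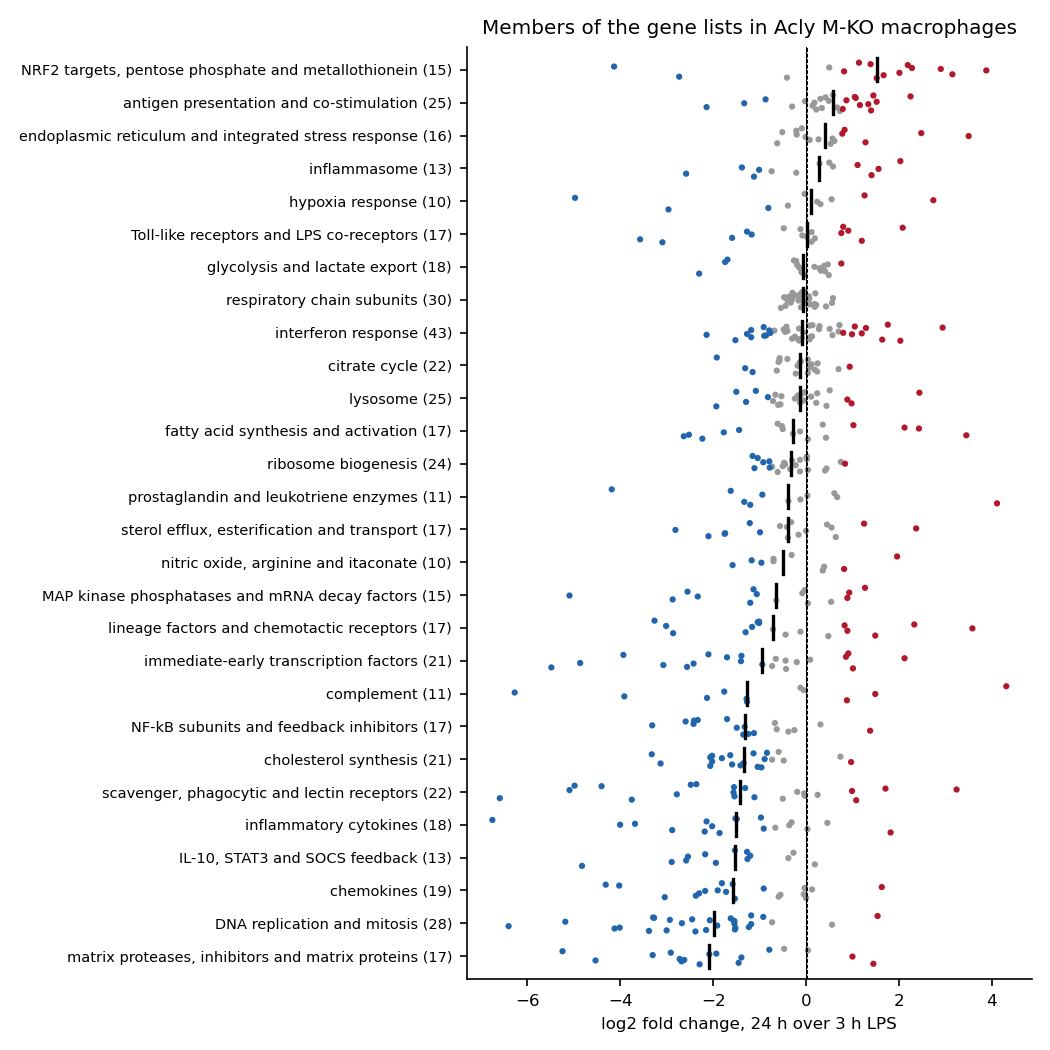
Log2 fold change of 24 h over 3 h LPS (x axis) for each tested member of 28 gene lists in Acly M-KO macrophages, ordered by list median, with the number tested in brackets. Red and blue points were called higher and lower, grey points were not called, black bars are list medians and the dashed line is the median of all genes tested, 0.03. Medians run from -2.08 for matrix genes to 1.52 for NRF2 targets.

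Genes of lipid synthesis changed with time in Acly M-KO cells, and many did so differently in control cells. Of 21 cholesterol synthesis genes, 16 were lower at 24 h, 1 was higher and 4 were not called in Acly M-KO cells, with a median of -1.34. Hmgcs1, which makes HMG-CoA, was at 344, 372 and 377 CPM at 3 h and at 98.4, 112 and 100 CPM at 24 h (log2 fold change -1.81, SE 0.06, adjusted p = 3.88e-13). Sqle, which oxidises squalene, was at 113, 140 and 120 CPM at 3 h and at 35.3, 46.6 and 38.5 CPM at 24 h (log2 fold change -1.63, SE 0.11). For both genes every 24 h library stood below every 3 h library. Srebf2, which encodes the factor SREBP2, fell by 1.74. CCAAT was present in 10 of the 12 matched promoters of cholesterol genes that fell, against 38.9% over all genes tested. It did not separate the directions, being also in 1 of 1 promoter of the member that rose and in 3 of 3 of those not called. The sterol response element, searched as ATCAC, any base and CCAC, was in 0 of the 16 matched promoters of the list and in 0.234% of all promoters, and no match says only that these letters are not in this window. The E-box CACGTG was in 2 of the 16 and in 7.15% of all promoters. Fdps overlaps the gene model Gm43738 on the same strand, and Fdft1 overlaps Ctsb on the opposite strand.

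Of 17 fatty acid synthesis and activation genes tested, 4 were higher (23.5%, against 21.3% of all genes), 5 lower (29.4%, against 20.2%) and 8 not called. Fasn, the fatty acid synthase, was at 134, 179 and 150 CPM at 3 h and at 33.1, 34.6 and 31.1 CPM at 24 h. Scd1, a desaturase, was at 73.3, 112 and 96.9 CPM and 16.3, 15.5 and 17.3 CPM. Acsl1, which attaches coenzyme A to fatty acids, rose from 219, 208 and 223 CPM to 2272, 2522 and 2294 CPM (log2 fold change 3.45, SE 0.06, adjusted p = 1.37e-16). Acss2, which makes acetyl-CoA from acetate without Acly, rose from 10.9, 13.4 and 10.7 CPM to 54.8, 47.5 and 50.1 CPM, and it overlaps Ggt7 and Gss on the opposite strand. Me1, the malic enzyme that supplies NADPH for fatty acid synthesis, rose from 1.89, 4.11 and 3.64 CPM to 16.9, 18.3 and 17.6 CPM (log2 fold change 2.43, SE 0.18). Among sterol efflux and transport genes 2 of 17 were higher (11.8%, against 21.3%) and 6 lower (35.3%, against 20.2%). Apoe fell from 1168 to 1543 CPM to 379 to 435 CPM, and the cholesterol exporter Abca1 gave -0.39 and was not called.

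Fitted with 6 control libraries, the change with time differed between genotypes for 238 of 11942 genes (1.99%). The change was higher in Acly M-KO cells for 82 genes (0.687% of those tested) and lower for 156 (1.31%). Such a call required an adjusted p under 0.05 and a difference beyond 0.75 on the log2 scale. In this fit the control changed in 2472 genes upwards (20.7%) and 2344 downwards (19.6%). Of the genes changed in Acly M-KO cells 81.9%, and of those changed in control cells 84.9%, were changed in the same direction in the other genotype, and 5 genes were changed in opposite directions. The 2 changes had a Pearson correlation of 0.941 across genes, which are not independent replicates.

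Of the 21 cholesterol genes 18 differed between genotypes in their change with time, all 18 being lower in Acly M-KO cells, and the list median of the control change was 0.48 against -1.34 in Acly M-KO cells. Of the 17 fatty acid genes 9 differed, again with a lower change in Acly M-KO cells. Of the 28 lists, 3 more had over 1 member that differed. Of 17 sterol efflux and transport genes 5 had a lower change in Acly M-KO cells, and of 15 NRF2 target genes 2, Slc7a11 (0.87) and Mt2 (1.01), had a higher one. Of 15 MAP kinase phosphatase and mRNA decay genes 4 differed, Dusp8 (-2.07), Dusp4 (-1.45) and Zfp36l1 (-1.10) with a lower change and Dusp14 (2.16) with a higher one. In the other 23 lists at most 1 member differed beyond the 0.75 on the log2 scale required for a call. Smaller differences in these lists could still have an adjusted p under 0.05 for the interaction term in edgeR. Among such members were Cd40 (0.42), Cxcl10 (0.43), Nos2 (0.46) and Ccr1 (0.65), and in the other direction Nfkbiz (-0.42) and C1qc (-0.48). For Scd1 the 3 h libraries were at 19.2 to 20.7 CPM in control cells and 73.4 to 112 CPM in Acly M-KO cells, and the 24 h libraries at 26.3 to 31.2 CPM and 15.5 to 17.3 CPM. Acly M-KO libraries thus stood above the control libraries at 3 h and below them at 24 h, and the same order held for Fasn, Fdps and Insig1. Fads2, a desaturase, showed the largest such difference by the naming rule, at a control change of 1.82 and an Acly M-KO change of -1.77 (difference -3.59, SE 0.20, adjusted p = 2.68e-11). Control 24 h libraries were at 23.9 to 27.3 CPM and Acly M-KO ones at 9.88 to 11.6 CPM for this gene, against 6.6 to 8.54 CPM and 28.8 to 44.7 CPM at 3 h.

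Among genes with a mean of at least 10 CPM in 1 or more of the 4 groups, those with the largest higher change in Acly M-KO cells were Vnn3, Slamf1, Plcxd2, Hilpda and Mreg. Slamf1, a receptor of the SLAM family, was at 14.2, 8.73 and 11.9 CPM at 3 h and at 79.2, 75.6 and 85.7 CPM at 24 h in Acly M-KO cells, and at 19.4 to 20.3 CPM and 36.7 to 46.3 CPM in control cells. Plcxd2, a phospholipase-like gene, was at 2.51 to 2.86 CPM and 37.4 to 48.4 CPM, and in control cells at 1.33 to 2.36 CPM and 9.98 to 13.1 CPM. Hilpda, which encodes an inhibitor of lipid droplet lipolysis, did not change in Acly M-KO cells by the rule (-0.01), with 5.50 to 6.16 CPM and 5.10 to 6.30 CPM, while the control change was -1.39.

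**Figure D4:**
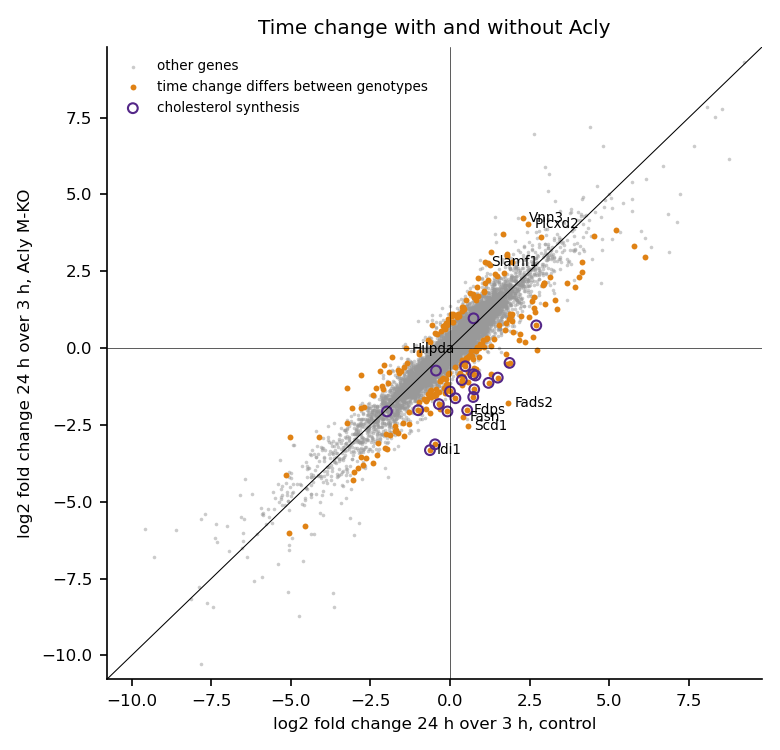
Log2 fold change of 24 h over 3 h LPS in control (x axis) and Acly M-KO macrophages (y axis), both from the fit of 12 libraries. Orange points are 233 of the 238 genes whose change differed between genotypes (the other 5 did not pass the filter in the 6 Acly M-KO libraries), open circles are the 21 cholesterol synthesis genes, and the diagonal marks equal change. Of the 21 circles, 18 are orange and lie below the diagonal.

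Among features that played no part in the choice of genes, the 3′ untranslated region differed in its number of AU-rich pentamers (ATTTA) between classes of change. Genes that were lower at 24 h by more than 2 had 1.96 pentamers per 1000 bases, those lower by up to 2 had 1.91, those not called had 1.83, and those higher by up to 2 and by more than 2 had 1.67 and 1.66. The share of genes with at least 5 pentamers was 22.5% in the first class and 15.3% in the last, with median lengths of 1090 and 862 bases. Inflammatory cytokine genes had 4.91 per 1000 bases and chemokine genes 3.35, against 1.82 over all genes tested. Other lists did not follow the direction of change. IL-10, STAT3 and SOCS feedback genes and scavenger receptor genes, mostly lower at 24 h, had 1.35 and 1.61. Respiratory chain genes, none of them called, had 2.89. These are descriptions over genes, without a test.

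**Figure D5:**
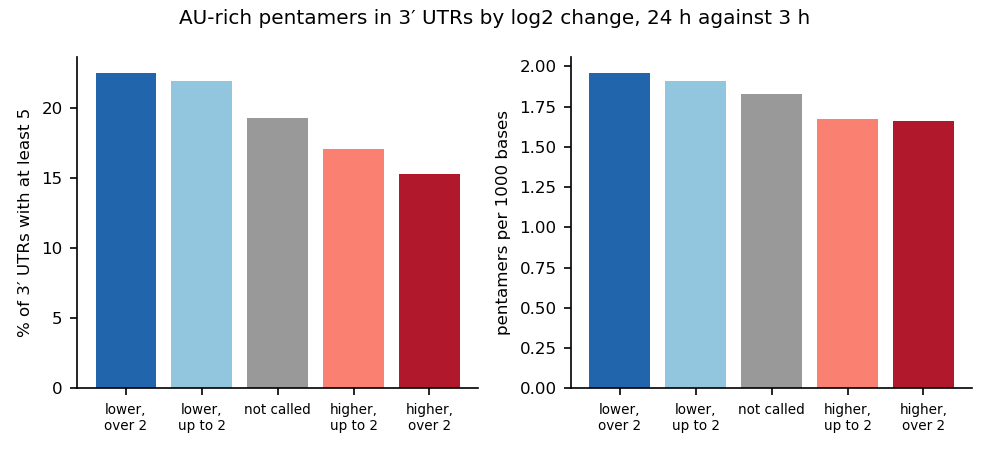
Share of 3′ untranslated regions with at least 5 AU-rich pentamers (left, percent) and pentamers per 1000 bases (right) for genes grouped by their log2 fold change of 24 h over 3 h LPS. From genes lower by more than 2 to genes higher by more than 2, the share goes from 22.5% to 15.3% and the density from 1.96 to 1.66.

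Markers of cells other than macrophages were at low levels. Of 10 neutrophil markers 4 were tested, Ngp, Ltf, S100a8 and S100a9, and all 4 were lower at 24 h. The summed level of all 10 was 19.9 to 25.8 CPM at 3 h and 6.2 to 7.42 CPM at 24 h, and Ly6g and Retnlg were at 0 counts in all 6 libraries. The 6 genes of the B cell list summed to 92.6 to 98.4 CPM and 144 to 150 CPM, nearly all of it Blnk, with Ms4a1, Pax5 and Cd79a below the filter. The T and NK cell list had 1 of 8 genes tested, Lck, at 9.63 to 16.6 CPM and 1.02 to 1.40 CPM. Summed over all listed genes, tested or not, mast cell and basophil markers were at 7.22 to 9.83 CPM at 3 h and 1.8 to 2.25 CPM at 24 h, most of it Kit, with Mcpt4, Mcpt8, Tpsb2 and Fcer1a at 0 counts in all 6 libraries. Dendritic cell markers were at 3.53 to 4.77 CPM and 3.69 to 4.34 CPM, and fibroblast markers at 3.01 to 3.37 CPM and 1.73 to 3.62 CPM. None of the 7 erythroid markers passed the filter, and they held 19 counts over the 3 h libraries and 9 over the 24 h libraries, with Hbb-bs, Klf1 and Rhag among those at 0 counts in all 6. The part of these cells in the results was not tested.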

How the data were processed

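Members and gene lists were chosen with earlier results of these data known. The deposited values are raw counts of tags per RefSeq transcript. Per the methods of the study, the authors made mRNA libraries with a strand-specific kit, sequenced them, aligned the reads to mm10 with STAR (2.5.2b) and counted with HOMER; CASAVA (1.8.2) stands in the submitters' processing notes. Strand and isoform settings of the counting are not given in the sources used here. Of 35745 rows, 35628 matched a symbol, 117 (1.13% of counts) did not, and for 6089 symbols with several rows the row with the highest total was kept, so an isoform switch can move a level. Columns matched labels with 0 left over.

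Genes were filtered with filterByExpr and tested in edgeR 4.0.16 (R 4.3.3, limma 3.58.1) on the 6 Acly M-KO libraries (TMM, robust quasi-likelihood, Benjamini-Hochberg adjustment over all 11673 genes). A gene changed if the adjusted p was under 0.05 and the log2 fold change beyond 0.75. TMM factors were 1.08 to 1.09 at 24 h and 0.904 to 0.928 at 3 h. The difference between genotypes was an interaction term over 12 libraries; 1 control 24 h library of 34467 counts was left out, and the other control libraries held 21274102 to 59577343 counts. CPM of the report use the 6-library scaling, and values beside controls the 12-library scaling. Counting intervals are exact and cover counting error only. Promoters and 3′ untranslated regions came from RefSeq (GRCm38.p6) and GENCODE tables. Named genes were the largest changes at a mean of at least 10 CPM without overlap of libraries (10 per direction), up to 3 changed members per list and direction, 10 cytokine and effector genes, and the 5 largest genotype differences per direction; other list members named were chosen after their values were seen. Some genes that met the rule are not reported here. Counts were simulated with 100 genes changed by 1 and 100 by 2 on the log2 scale, far fewer than changed in the data. The time comparison recovered 88% and 96% of them, and the difference between genotypes 78% and 96%. With so few genes changed, the simulation cannot test the scaling. Replicates differed beyond counting error (chi-square per degree of freedom 2.66 to 11.9). Alternatives were other scalings, filters, DESeq2 1.42.0, limma-voom, fold thresholds, a replicate block and leaving out libraries.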

Additional observations from a re-analysis of the deposited data

Results flagged for a closer look

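The genes below were flagged because their change from 3 h to 24 h of LPS differed between Acly M-KO and control macrophages in the interaction term of the fit over 12 libraries (edgeR, adjusted over 11942 genes). Each value is the Acly M-KO change minus the control change on the log2 scale. In lipid synthesis the differences were -3.59 for Fads2, -3.09 for Scd1, -2.69 for Idi1, -2.64 for Fasn, -2.56 for Fdps, -1.54 for Acss2 and -1.48 for Insig1. Of these, the value of Idi1 rests on levels of at most 5.8 CPM in every library. Acss2 rose in both genotypes, by 2.12 in Acly M-KO and 3.66 in control cells. At 3 h Acss2 was at 10.7 to 13.4 CPM in Acly M-KO and 3.10 to 4.82 CPM in control libraries, and at 24 h at 47.5 to 54.8 CPM and 49.0 to 52.5 CPM.

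Outside lipid synthesis, the difference was -2.07 for Dusp8, -1.67 for Trib3, -1.21 for Cebpd, -1.03 for C5ar1 and -0.97 for Ccr3. It was 2.16 for Dusp14, 1.97 for Vnn3, 1.69 for Slamf1, 1.58 for Plcxd2, 1.38 for Hilpda, 1.24 for Mreg and 1.01 for Mt2. The values of Dusp8 and Dusp14 rest on levels under 5 CPM in every library. Cebpd was at 66.0 to 70.7 CPM in Acly M-KO and 27.2 to 34.5 CPM in control libraries at 3 h, and at 6.41 to 8.03 CPM and 6.42 to 8.24 CPM at 24 h. Trib3 was likewise higher in Acly M-KO libraries at 3 h, at 3.62 to 6.82 CPM against 0.921 to 1.57 CPM. The difference of Mreg fell short of the rule without 1 library in 4 cases: 1.09 without Acly M-KO 24 h replicate 3, 1.18 without Acly M-KO 3 h replicate 3, 1.14 without control 24 h replicate 4 and 0.83 without control 3 h replicate 2.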

How the results depend on the processing

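The numbers of genes higher and lower at 24 h stayed within 1.5 times those of the report under every alternative run. Leaving out 1 library gave 2474 to 2538 higher and 2399 to 2438 lower, DESeq2 gave 2346 and 2431 and shared 4687 of the 4847 calls in direction, limma-voom gave 2488 and 2368, and a test against the fold itself gave 1776 and 1878. Genes whose change differed between genotypes dropped to 35 higher and 95 lower at a fold threshold of 1; leaving out 1 library gave 59 to 108 higher and 127 to 223 lower. Same-numbered 3 h and 24 h libraries deviated together only weakly (correlations 0.0421 to 0.0533), but each correlation was above those of other numbers (-0.0307 to -0.0115). The labels do not say whether these libraries were paired, and the main fits did not pair them. With the replicate number as a block the counts were 2486 and 2361 for the time comparison and 63 and 130 for the difference between genotypes. In that block fit, control 3 h replicate 1 and control 24 h replicate 4 had no partner of the same replicate number and were left unmatched. Whether these 2 libraries belong together is not given by the labels. Of 169 changed genes that met the naming rule, 19 missed the rule under at least 1 alternative, 10 of them only when the fold required was raised, and 0 of their values reversed. Besides Ciita, Klf2 and Hk3, the call was lost for Dusp6 without 3 h replicate 3 (0.65), for Ticam2 without 3 h replicate 2 (0.75) and for Egln3 without 24 h replicate 3, 3 h replicate 1 or 3 h replicate 3 (1.03 to 1.07). Depth limits genes of a few counts, such as Sele and Il33, whose intervals span more than 10-fold.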
